A study of Homo sapiens with 2 samples.

Results

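The keratins examined here are the simple epithelial keratins KRT7, KRT8, KRT18 and KRT19, the hair-type keratins KRT81, KRT33A and KRT34, and 3 further epithelial keratins, KRT17, KRT15 and KRT80. These 10 genes were selected on their signals on the same arrays that are described below, so their values are a description and not a test. A gene counted as found when at least 1 probe set, a group of short oligonucleotides that reads a transcript, was paired with that gene alone in the platform annotation. By this rule 7 of the 10 genes, with 11 of the 54613 probe sets on the array, were found. KRT17 and KRT81 matched no probe set in the annotation used here and were not analysed. KRT34 was paired only with a probe set that also names another gene, LOC100653049, and that probe set is described on its own and stands for neither gene.

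Keratins are the intermediate filament proteins of epithelial cells. A filament is built from pairs of a type I (acidic) and a type II (basic) keratin, and an epithelium can be recognised by the pairs it makes. KRT8 and KRT18 are the first pair to appear in simple epithelia such as the glandular lining of the prostate, with KRT7 (type II) and KRT19 (type I) added in many glands. KRT15 is a type I keratin of basal cells in stratified epithelia and KRT17 one of activated and appendage epithelium, while KRT80 is a type II keratin of differentiated epithelium. KRT33A and KRT34 (type I) and KRT81 (type II) belong to the hair keratins, which form the hard shaft of hair together with keratin-associated proteins.

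PC-3 is a line of human prostate cancer cells that grows without androgen. The RD array held total RNA of PC-3 cells exposed for 24 h to 10 µmol/L RD (Riccardin D, a macrocyclic bisbibenzyl from a liverwort), a dose that the sample labels do not give. The Control array held RNA of PC-3 cells given DMSO vehicle according to the treatment protocol, although the source label of this sample calls the cells untreated. There was 1 Affymetrix HG-U133 Plus 2.0 array per condition, all cells came from a single line, and the question was how gene expression differed after RD. Since each condition had a single array, the variation from culture to culture is unknown, no p-value is given, and RD cannot be told apart from anything else that differed between the cultures. Nor can fewer cells that make a transcript be told apart from less of it per cell in RNA of whole cultures.

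Signals are MAS5 intensities on a linear scale. A call of higher or lower was made when the RD and Control signals were 2-fold or more apart and the higher of them was at or above a floor of 66.9, which is the median over all probe sets and both arrays. Where the lower signal was under the floor, the difference is also given as a bound against the floor, as at least N-fold. Of several probe sets for a gene, the one with the highest mean log2 signal stood for it. The error that could be had from these arrays is the disagreement among probe sets that read 1 gene, which holds no variation between cultures. Its SD in the log2 difference was 0.76 over 18518 probe sets whose higher signal reached the floor. It was 0.43 over 15051 probe sets with both signals at or above the floor. Of 12818 genes whose higher signal reached the floor, 12.1% were called higher and 13.3% were called lower on the RD array, and their median log2 difference was -0.0022. The label of a prostate epithelial tumour line was only in part borne out by markers. KRT8 and KRT18 were above the floor on both arrays, each by 1 probe set of a type whose probes also match other sequences. However, by their brightest probe sets, the epithelial markers EPCAM, CDH1, CLDN4 and CLDN7 and the prostate marker KLK2 were under the floor on both. None of the 3 leukocyte markers with a probe set reached the floor. Of the others, 2 of 6 fibroblast markers (COL1A1 and DCN), 1 of 4 endothelial markers (PECAM1) and 1 of 3 prostate markers (KLK3) did. Each was less than 2-fold apart between the arrays. The probe sets that stood for DCN and KLK3 were of the same type as those of KRT8 and KRT18.

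The keratins did not move together. Of the 7 genes found, 1 was called higher on the RD array (KRT33A) and 3 were called lower (KRT7, KRT15 and KRT80). KRT8 and KRT18 were higher by less than 2-fold, and KRT19 did not reach the floor on either array. The contrasts that gave these counts also chose the genes, so nothing is read from them against the background of 12.1% and 13.3%. Of the 11 probe sets, 7 reached the floor on at least 1 array, and 6 carried one of the suffixes (_s_at, _x_at or _a_at) that mark probes shared between transcripts, which 31.5% of all probe sets on the array carried.

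**Figure D1:**
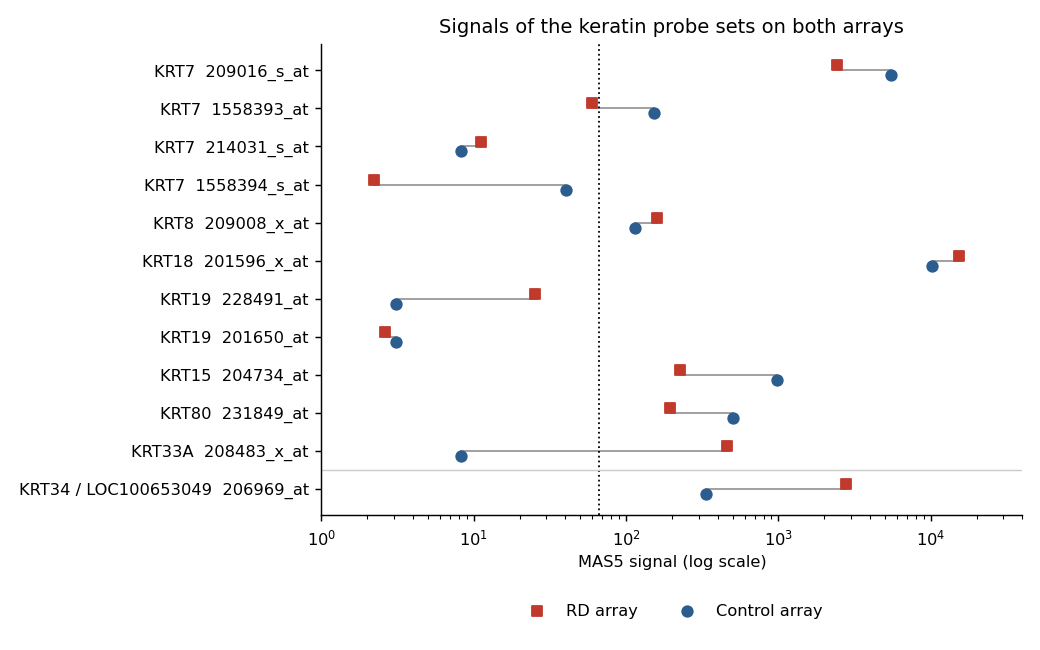
MAS5 signal (horizontal, log scale) of every single-gene probe set of the listed keratins on the RD array (red squares) and the Control array (blue circles), with the probe set paired with KRT34 and LOC100653049 below the grey line. The dotted line is the floor of 66.9. RD squares lie left of Control circles for the brightest probe sets of KRT7, KRT15 and KRT80 and right of them for KRT8, KRT18 and KRT33A.

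Among the simple epithelial keratins, the pair KRT8 and KRT18 had somewhat higher signals on the RD array and KRT7 had a lower one. KRT18, the type I partner of KRT8, had a signal of 15416.6 in RD-treated cells and 10224.2 in control cells, which is 1.51-fold higher, or 0.59 on the log2 scale. KRT8 had a signal of 159.3 in RD-treated cells and 113.8 in control cells, 1.40-fold higher (0.49 on the log2 scale). Both differences point the same way. They lie above the probe set SD of 0.43 for signals at the floor on both arrays, and below the SD of 0.76 for those at the floor on 1 array or both. Each gene was read by a single probe set, and each of these carries the suffix _x_at, which marks probes that also match other sequences. The RefSeq gene table lists 52 pseudogenes named after KRT8 and 68 named after KRT18, so neither signal can be assigned to its gene alone. A pair of probe sets of the pseudogene KRT8P12, which lack the suffix, stood at 156.7 and 125.5 on the RD array and at 155.3 and 97.7 on the Control array.

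KRT7, a type II keratin of glandular and ductal epithelium, was called lower. Its brightest probe set had a signal of 2440.5 in RD-treated cells and 5497.8 in control cells, 2.25-fold lower, a log2 difference of -1.17. A second probe set, the only one of the gene whose name marks no shared sequence, had a signal of 59.9 in RD-treated cells and 152.0 in control cells, and it was therefore at least 2.27-fold lower. Both readings have the same direction and pass 2-fold, and the size of the second is known only as a bound. The other probe sets of KRT7 were under the floor on both arrays, with signals of 2.2 and 11.2 on the RD array and 40.5 and 8.2 on the Control array, and no order is read from them. Within the simple epithelial group, KRT18 thus stood at 1.51 of its control signal and KRT7 at 0.444 of its own.

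KRT19, a type I keratin that has a very short tail domain and is used as a marker of ductal epithelium, was not measurable. Its probe sets gave 25.2 and 2.6 on the RD array and 3.1 and 3.1 on the Control array, all under the floor, and neither carries a shared-sequence suffix. No fold is given for this gene. The median log2 difference of the simple epithelial keratins at the floor was 0.49, over KRT7, KRT8 and KRT18, and it equals the value of KRT8. It was -1.34 when only probe sets without the suffixes were used, since KRT7 then remained alone.

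KRT15 and KRT80, which belong to neither the simple nor the hair keratins, were both called lower, and each was read by 1 probe set without a shared-sequence suffix. KRT15, the keratin of basal keratinocytes and of the stem cell region of the hair follicle, had a signal of 227.1 in RD-treated cells and 982.0 in control cells. That is 4.32-fold lower, a log2 difference of -2.11. KRT80 had a signal of 193.7 in RD-treated cells and 499.8 in control cells, 2.58-fold lower (-1.37 on the log2 scale). Both signals of both genes were above the floor, and both differences exceed the probe set SDs of 0.43 and 0.76. Those SDs hold no variation between cultures. No second probe set was available to check either gene. KRT15 was also the only listed keratin past 3-fold in this direction.

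Among the hair-type keratins the only gene with a probe set of its own was KRT33A, and it was called higher. Its signal was 460.1 in RD-treated cells and 8.2 in control cells. The control signal was far under the floor, so the supported statement is that it was at least 6.88-fold higher, or at least 2.78 on the log2 scale. The ratio of the deposited signals, 56.1, and the matching log2 difference of 5.81 rest on a control signal that is itself not measurable. The bound moves with the floor: against a floor of 377.4, the 75th percentile of all signals, it is 1.22-fold, which is not a 2-fold difference. This probe set carries the suffix _x_at. The close relative of the gene on the array is KRT33B, a type I hair keratin that is its neighbour on chromosome 17, and cross-reading between them was not tested.

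KRT33B had a signal of 401.6 in RD-treated cells and 23.2 in control cells, at least 6.00-fold higher, by a probe set without a suffix. The third neighbour, KRT34, shares its probe set with LOC100653049, a protein-coding entry that the RefSeq table also places on chromosome 17. That probe set read 2797.4 in RD-treated cells and 337.1 in control cells, an 8.30-fold higher signal (3.05 on the log2 scale), and both signals were above the floor. The 3 probe sets that read this run of adjacent hair keratin genes were thus all higher on the RD array. Whether they read separate transcripts cannot be told from the signals, and KRT81, the type II hair keratin that would complete a pair, was not analysed.

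**Figure D2:**
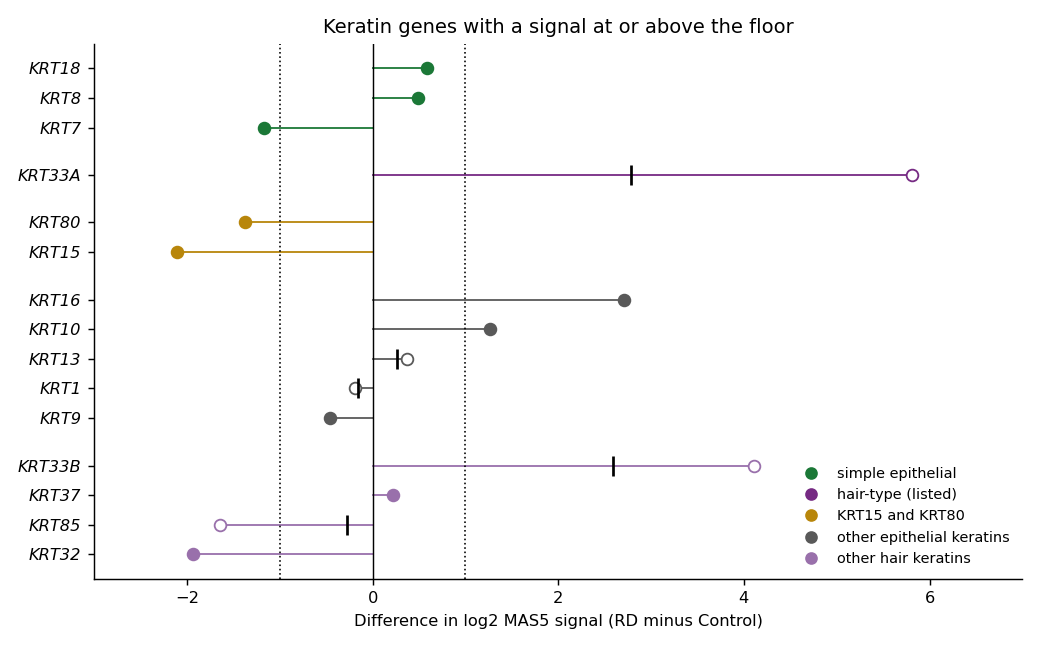
Log2 MAS5 signal in RD minus that in Control (horizontal) for the keratin genes whose higher signal reached the floor, sorted into groups. Open circles have 1 signal under the floor, and the black tick on their line is the bound computed against the floor; dotted lines mark 2-fold. The open circles of KRT33A and KRT33B have bounds of 2.78 and 2.59, which are lower limits that depend on the floor. KRT16, at the floor on both arrays, stands at 2.71, and KRT15 lies furthest left at -2.11.

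The start regions of these adjacent hair keratins are shown because KRT33A, KRT33B and the shared KRT34 probe set had higher signals together. RefSeq promoter windows on GRCh38.p14, from 250 bases before to 50 bases after a start site, were at hand for KRT8, KRT33A and KRT34 of the listed genes and for KRT33B. All 3 hair keratin genes lie on the minus strand of chromosome 17, and the windows are chr17:41350779-41351078 for KRT33A, chr17:41382257-41382556 for KRT34 and chr17:41369764-41370063 for KRT33B. They are printed 5′ to 3′ in the direction of the gene. Capitals mark matches, on either strand, to TATAAA (the TATA box), TGATGNAA (the core of a composite C/EBP and ATF site) and CTTTGAA (a LEF/TCF core), and no matches overlap.
KRT33A: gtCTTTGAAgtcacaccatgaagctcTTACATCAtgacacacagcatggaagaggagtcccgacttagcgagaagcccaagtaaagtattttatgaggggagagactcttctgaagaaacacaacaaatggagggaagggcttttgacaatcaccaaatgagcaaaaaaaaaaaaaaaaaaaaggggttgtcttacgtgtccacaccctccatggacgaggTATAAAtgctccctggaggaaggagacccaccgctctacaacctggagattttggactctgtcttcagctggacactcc
KRT34: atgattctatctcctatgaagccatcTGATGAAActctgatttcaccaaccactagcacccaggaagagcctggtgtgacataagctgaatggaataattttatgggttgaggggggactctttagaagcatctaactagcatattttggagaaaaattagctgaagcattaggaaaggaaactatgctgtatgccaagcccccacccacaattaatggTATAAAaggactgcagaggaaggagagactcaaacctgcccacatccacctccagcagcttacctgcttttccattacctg
KRT33B: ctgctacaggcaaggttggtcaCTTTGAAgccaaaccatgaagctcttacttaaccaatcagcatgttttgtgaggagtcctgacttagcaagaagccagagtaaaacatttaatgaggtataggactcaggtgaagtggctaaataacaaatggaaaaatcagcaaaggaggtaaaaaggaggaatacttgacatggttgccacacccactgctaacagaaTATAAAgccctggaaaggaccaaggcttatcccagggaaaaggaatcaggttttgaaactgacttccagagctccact

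Each of the 3 windows had 1 TATAAA match, which began 29 bases before the start of KRT33A, 31 before that of KRT34 and 28 before that of KRT33B. This motif was found in 11.5% of 35093 RefSeq promoter windows of the same length. TGATGNAA was found in the windows of KRT33A, on the minus strand of the window, and KRT34, on its plus strand, in each case beginning 224 bases before the start, and in 3.62% of all windows. KRT33B had no match to it. CTTTGAA was found 248 bases before the start of KRT33A and 228 before that of KRT33B, but not in the KRT34 window, and in 4.43% of all windows. The same search for GGGCGG (a GC box, 44.9% of all windows) and TGANTCA (an AP-1 site, 7.71%) gave no match in these windows, and the window of KRT8 had no match to any of the 5 motifs. For KRT8 and these hair keratins only the first listed window of the gene was searched, so any other start site was not examined. For 19 other hair and hair follicle keratins with a window, a match in any window of the gene was counted. Among them 14 had TATAAA, 6 had CTTTGAA and 1, KRT82, had TGATGNAA. Hence TATAAA and CTTTGAA were also present at hair keratins that were not higher on the RD array, such as KRT31 (both motifs, under the floor) and KRT32 (CTTTGAA, lower). The windows of KRT33A and KRT33B were identical in 191 of 336 aligned positions (56.8%), and those of KRT33A and KRT34 in 174 of 324 (53.7%). A match describes letters in a window and not binding.

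Set side by side, the hair-type group had a median log2 difference of 5.81 and the simple epithelial group one of 0.49. The first of these is KRT33A alone, and at its bound it is 2.78, which puts the distance between the groups at 2.30 in place of 5.32. With the shared probe set taken as KRT34, an alternative added after the data were seen, the hair-type median was 4.43 over 2 genes, or 2.92 with KRT33A at its bound. By either reading, the hair-type signal on the RD array was higher than its control signal by more than that of any simple epithelial keratin at the floor. The contrast between the groups was part of how the genes were chosen.

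Most of the remaining keratins were under the floor on both arrays. Their lists and the gene groups below were chosen with earlier results of these data known. Over all genes at the floor, 12.1% were called higher and 13.3% lower, and no group's counts are read against those shares. Of 19 other epithelial keratins with a probe set, 5 reached the floor, 2 were called higher and none was called lower, with a median log2 difference of 0.37. KRT16, a type I keratin of stressed and wounded epithelium, had a signal of 3671.5 in RD-treated cells and 560.2 in control cells, 6.55-fold higher by its only probe set, which has no suffix. KRT10, the type I keratin of differentiating epidermis, had signals of 11589.3, 13601.3 and 6838.0 in RD-treated cells, against 4818.9, 4053.2 and 2371.9 in control cells. These are 2.40-fold, 3.36-fold and 2.88-fold higher by 3 probe sets, all with shared-sequence suffixes, while its antisense gene KRT10-AS1 stood at 1459.8 on the RD array and 1621.5 on the Control array. At the low end of this group, KRT9 had 89.0 in RD-treated cells and 122.0 in control cells, and KRT1 had 65.4 in RD-treated cells and 74.6 in control cells.

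Of 18 other hair and hair follicle keratins with a probe set, only 4 reached the floor, with 1 called higher (KRT33B) and 2 lower. KRT32, a type I hair keratin of the cuticle that lies in the same cluster, went the opposite way from KRT33B, with a signal of 77.2 in RD-treated cells and 294.1 in control cells (3.81-fold lower). KRT85, a type II hair keratin, had 26.2 in RD-treated cells and 81.5 in control cells, at least 1.22-fold lower, and KRT37 had 78.3 in RD-treated cells and 67.0 in control cells. Among hair keratins with probe sets of their own, KRT33A and KRT33B were the genes called higher. In the order of keratin genes along chromosome 17, the next keratins on either side of KRT33A, KRT33B and KRT34 were KRT40 and KRT31. Both were under the floor on both arrays. Only keratin genes were placed in this order, so genes of other families, such as keratin-associated proteins, may lie between them. On chromosome 12, KRT80 and KRT7 were next to each other among the keratins and were both lower. KRT8 and KRT18, also side by side in this order, were both higher by less than 2-fold.

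**Figure D3:**
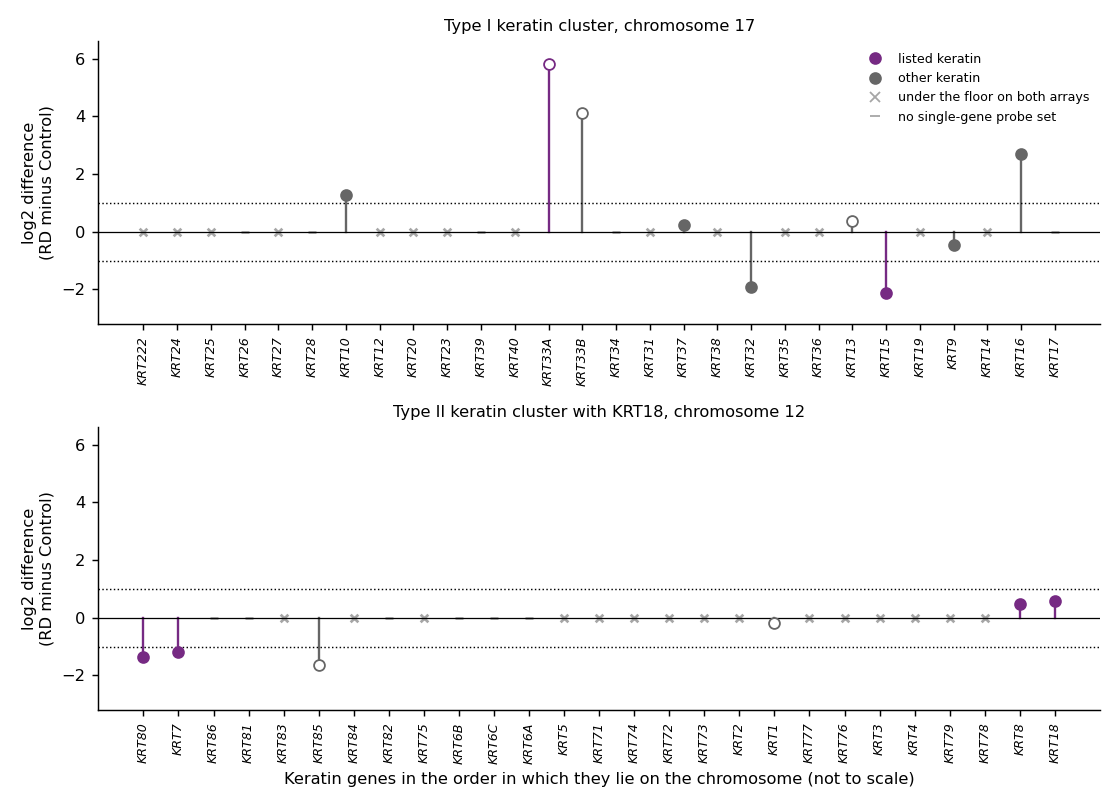
Difference in log2 MAS5 signal (RD minus Control, vertical) of keratin genes in their order on chromosome 17 (top) and chromosome 12 (bottom). Open circles have 1 signal under the floor, crosses were under the floor on both arrays, dashes had no single-gene probe set, and dotted lines mark 2-fold. KRT33A (bound 2.78) and KRT33B (bound 2.59) stand next to each other, and most keratins of both clusters were under the floor.

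Keratin-associated proteins crosslink hair keratins into the hard shaft. Of 34 genes whose symbol starts with KRTAP, an antisense gene included, 8 reached the floor, 4 were called higher and 1 lower, and the median log2 difference of 0.75 was 0.23 once every signal below the floor had been set to it. The only gene of this family called higher with both signals at the floor was KRTAP4-2, with 343.3 in RD-treated cells and 83.9 in control cells (4.09-fold higher). KRTAP10-11 had 127.1 in RD-treated cells and 3.5 in control cells (at least 1.90-fold higher), and KRTAP4-8 had 161.1 in RD-treated cells and 34.5 in control cells (at least 2.41-fold higher). At the other end, KRTAP19-3 had 11.9 in RD-treated cells and 79.9 in control cells (at least 1.19-fold lower), and KRTAP4-9 had 58.5 in RD-treated cells and 70.5 in control cells. KRTAP10-11, KRTAP7-1 and KRTAP19-3 did not reach 2-fold at their bounds, so these dim signals hardly exceed the floor. Of 8 hair shaft transcription factors, 4 reached the floor, with 2 called higher, none called lower and a median log2 difference of 0.50. GATA3 had 142.9 in RD-treated cells and 52.5 in control cells (a difference of at least 2.14-fold) and MSX1 had 938.4 in RD-treated cells and 461.8 in control cells (2.03-fold higher). LEF1, the Wnt pathway factor that acts at hair keratin genes, had 1048.2 in RD-treated cells and 1060.8 in control cells, and the vitamin D receptor gene VDR had 86.7 in RD-treated cells and 91.0 in control cells. HOXC13 and FOXN1, which drive hair keratin genes in the follicle, were under the floor on both arrays.

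Among 14 genes at the floor whose proteins anchor or organise keratin filaments, 6 were called lower and 2 higher, with a median log2 difference of -0.32, beside the background of 13.3% lower and 12.1% higher calls. Of the lower calls, those of EPPK1 and PKP3 did not reach 2-fold at their bounds, which leaves 4 lower. The background is 9.1% lower and 8.24% higher when signals under the floor are set to it. This list was chosen with earlier results of these data known, so nothing is read from its counts against either background. EVPL (envoplakin) had 7.2 in RD-treated cells and 179.5 in control cells, at least 2.68-fold lower, and PPL (periplakin), which links keratins to the desmosome, had 181.4 in RD-treated cells and 2442.8 in control cells, 13.5-fold lower. JUP (plakoglobin), a desmosome protein, had 377.2 in RD-treated cells and 1734.4 in control cells (4.60-fold lower). PLEC (plectin), a linker of keratins to hemidesmosomes, had 93.7 in RD-treated cells and 430.7 in control cells by its brightest probe set (4.60-fold lower) and 27.8 in RD-treated cells and 541.2 in control cells by the other (at least 8.09-fold lower). At the high end, SFN (14-3-3 sigma), a binding partner of KRT17, had 545.2 in RD-treated cells and 174.9 in control cells (3.12-fold higher), and TRADD, a death receptor adaptor that binds KRT18, had 1495.0 in RD-treated cells and 637.7 in control cells (2.34-fold higher). The casein kinase gene CSNK1A1 and FAM83H, which act on keratin filament organisation, were within 2-fold.

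Of 9 other intermediate filament genes at the floor, 3 were called lower and 2 higher, with a median log2 difference of -0.17. The lamins of the nuclear envelope made up the lower calls. LMNB1 had 205.0 in RD-treated cells and 1038.3 in control cells (5.06-fold lower), and LMNB2 had 240.2 in RD-treated cells and 1171.5 in control cells (4.88-fold lower). By its brightest probe set, LMNA had 1207.1 in RD-treated cells and 4707.8 in control cells (3.90-fold lower). Its other probe sets with both signals at the floor were from 1.55-fold, which is no call, to 4.65-fold lower. Vimentin (VIM), the filament protein of mesenchymal cells, was nearly the same on both arrays, with 31652.1 in RD-treated cells and 29512.2 in control cells (1.07-fold). NES (nestin) had 80.4 in RD-treated cells and 3.2 in control cells, at least 1.20-fold higher, with its other probe set under the floor, and PRPH (peripherin) had 146.6 in RD-treated cells and 59.7 in control cells, at least 2.19-fold higher.

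Of 11 epithelial transcription factors at the floor, 2 were called higher and 2 lower, with a median of -0.32 on the log2 scale. CEBPB, a C/EBP factor, had 27763.1 in RD-treated cells and 8939.9 in control cells (3.11-fold higher), and KLF4, a factor of epithelial differentiation, had 21552.7 in RD-treated cells and 9457.2 in control cells (2.28-fold higher). ELF3 had 14.9 in RD-treated cells and 100.2 in control cells (at least 1.5-fold lower) and OVOL1 had 55.7 in RD-treated cells and 130.5 in control cells (at least 1.95-fold lower). Neither lower call reached 2-fold at its bound.

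**Figure D4:**
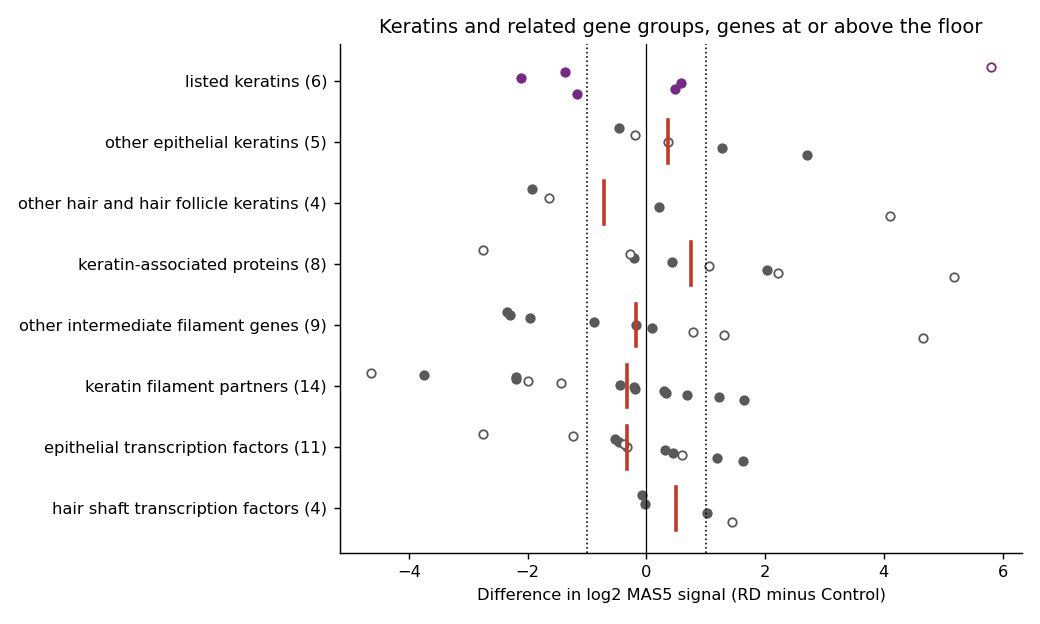
Log2 MAS5 signal in RD minus that in Control (horizontal) for the genes at the floor in the listed keratins and in 7 related groups, whose gene numbers are in brackets. Red bars are group medians, open circles have 1 signal under the floor, and dotted lines mark 2-fold. The listed keratins spread from -2.11 for KRT15 to KRT33A, which is at least 2.78 at its bound. Among partners with both signals at the floor, PPL lies furthest left at -3.75.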

How the data were processed

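Total RNA of 1 RD-treated and 1 control PC-3 culture was read on Affymetrix HG-U133 Plus 2.0 arrays. The authors deposited linear signal intensities, for which the submitters' processing notes name MAS5 without a version or a scaling target. With 2% of probe sets trimmed from each end, the mean signal was 495.9 (RD) and 495.8 (Control), so the arrays had been scaled alike. Log2 differences (RD minus Control) were computed without offset or further scaling. The platform annotation paired 41091 probe sets with 1 gene, 1801 with several, which stood for none, and left 11721 unnamed here, and 19775 genes were represented.

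The members and gene lists were chosen with earlier results of these data known. All 10 members are named, and in each other list up to 2 genes at each end among those at the floor. KRT10-AS1, KRT82, KRT31, KRT40, KRTAP7-1, KRTAP4-2, LMNA, VIM, JUP, PLEC, EPPK1, PKP3, HOXC13, FOXN1, CSNK1A1, FAM83H the KRT8P12 probe sets and the markers under the floor were named after their values were seen. No test was made, since only the 2 arrays are at hand and their number limits the precision. The alternatives were median centring, quantile normalization, an offset of 17.1, the median over probe sets, probe sets without shared-sequence suffixes, raising signals to the floor, no floor, a floor of 377.4 (75th percentile), thresholds of 1.5-fold and 3-fold, and, added after the data were seen, the shared probe set as KRT34. Promoters and gene order were taken from RefSeq (GRCh38.p14). The scripts were tested on simulated data. Python 3.11.15, numpy 2.4.6 and pandas 2.3.3 were used.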

Additional observations from a re-analysis of the deposited data

Results flagged for a closer look

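The probe set paired with both LOC100653049 and KRT34 stood for no gene in the counts, and its signal of 2797.4 on the RD array was 8.30-fold above the 337.1 on the Control array. Which of the paired genes it read was not tested.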

How the results depend on the processing

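Median centring, quantile normalization and the median over probe sets moved no count and no group median by more than the SD of 0.76. With an offset of 17.1 the hair-type median was 4.24 and its distance from the simple epithelial median 3.81, and with signals raised to the floor they were 2.78 and 2.30. Without suffixed probe sets, 0 members were called higher and the simple epithelial median was -1.34 (KRT7 alone), since KRT8, KRT18 and KRT33A have no other probe set, and no hair-type value could be had. Without a floor 2 members were higher (KRT19 added). With the floor at 377.4, which drops KRT8, the simple epithelial median was -0.29 and the distance 6.10, but with KRT33A at its bound against that floor (0.29, or 1.22-fold) the distance was 0.58. At 1.5-fold 2 members were higher (KRT18 added), and at 3-fold 1 was lower (KRT15). With the shared probe set as KRT34, 2 members were higher, the hair-type median was 4.43 and the distance 3.95 (2.92 and 2.43 with KRT33A at its bound). The log2 differences of KRT7, KRT15 and KRT80 stayed past 2-fold under each alternative that gave them a value. No such value was computed for the floor of 377.4, under which the RD signals of KRT15 (227.1) and KRT80 (193.7) lie. Against that floor the differences of KRT15 and KRT80 are known only as bounds, which were not computed. No paired analysis was possible because each condition had 1 array. Signals near the floor limit what can be said of KRT8, KRT19 and the KRTAP genes.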
